A study of Mus musculus with 16 samples.

Results

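Chromosome 8 of the mouse was read by 1954 probes of an Agilent whole mouse genome array, and 1044 of them (53.4%), for 736 genes, lay well above background on each of 16 arrays. These 1044 probes are the members described here, chosen by their position and by the scanner's own detection flag out of 19937 probes that met the same flag on all chromosomes. They lie between positions 3151667 and 131256551 of chromosome 8 in mm9, the build of the probe positions in the scanner files. For each line the level of a member was compared with its mean over the other lines, with mouse embryonic fibroblasts (MEFs) left out of that mean. A further 74 chromosome 8 probes were well above background on 15 arrays, and 386 were on none.

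The study asked how closely induced pluripotent stem (iPS) cells made with human artificial chromosome vectors resemble embryonic stem (ES) cells, and hybridized 1 Cy3-labelled RNA sample of each line to 1 array. MEFs were of C57BL/6 origin and gave 1 array. The ES lines were B6 ES, from C57BL/6, and TT2, from C57BL/6 x CBA F1, and the iPS line 20D17, made with retrovirus vectors, had a C57BL/6 x DBA background. In the iHAC1-iPS group, clones 1-D6, 1-C3, 1-B and 1-A3 carried the iHAC1 vector with 2 copies each of the reprogramming factor genes Oct4, Sox2, Klf4 and c-Myc. In the iHAC2-iPS group, clones 2-N, 2-E, 2-C6 and 2-B1 carried iHAC2, which adds 2 more copies of Oct4 and a p53 knockdown construct. The iHAC-free iPS group holds 4 derivatives of those clones that have lost the vector: F-N7 from 2-N, F-E4 from 2-E, F-C5 from 2-C6 and F-B1 from 2-B1. Each clone or line is the replicate of its group, so a spread between replicates is a spread between lines. ES and iPS cells are kept on layers of feeder fibroblasts, and in bulk RNA fewer cells of a type and less RNA per cell cannot be told apart. No DNA was measured on these arrays, so the values below are RNA levels and not chromosome counts.

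Cells with an extra copy of a chromosome carry an extra copy of each gene on it, and RNA levels of many of these genes tend to rise together, although single genes may be buffered or respond through other routes. Gain of chromosome 8 is among the well known karyotype changes of mouse ES cells in culture, where cells that carry it can outgrow their neighbours. An array of RNA shows such a gain, if present, as a small shift of most probes of a chromosome rather than as a large change of a few genes. With 3 copies in place of 2 and an equal output per copy, the shift would be 1.5-fold, or 0.58 on the log2 scale.

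The probes themselves were 60-base oligonucleotides, and the first 30 bases of 6 of them are given here with their mm9 positions on chromosome 8. Hmgb2, Lsm4, Ash2l and Fam32a are shown as examples whose levels by line are given in the text, and both Klf2 probes because they read the same gene differently.
Hmgb2, chr8:59992990-59993049, plus strand: agtgcagctcaacattagcttcagtataaa
Lsm4, chr8:73202536-73202594, plus strand: catgtttgagtttcagatggagctcgcagg
Ash2l, chr8:26927352-26927411, minus strand: ggaatatgcctacagggtttaaaagataga
Fam32a, chr8:74746236-74746295, plus strand: ctggtgaatctgctgagaccaggttttctg
Klf2, chr8:74843761-74843820, plus strand: acacgccgccgctcagccccgacggccccc
Klf2, chr8:74845137-74845196, plus strand: tgtatataagactatgaccgattgtatttc

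Chromosome 8 stood higher in B6 ES than in the other lines. Levels are given as the log2 of the processed signal minus the 75th percentile of the array, so that 0 marks the 75th percentile. The median member of B6 ES lay 0.34 above the mean of the 14 other lines, a 1.27-fold difference, with a standard deviation of 0.57 over members and quartiles of -0.03 and 0.65. In B6 ES 73.7% of the members lay above that mean, against 54.2% of the 18134 probes of the other autosomes. The median of those other autosomes was 0.05 in B6 ES, which left an excess of 0.30 for chromosome 8. These values are the ones by which the chromosome and the line were chosen, so they are a description and carry no test.

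No other line had a chromosome 8 median of this size. The medians of the 14 other lines ran from -0.08 in F-N7 to 0.05 in F-B1, with a standard deviation of 0.035. TT2, the other ES line, had 0.02, and 20D17 had -0.02. The iHAC1-iPS clones lay between -0.02 and 0.01, the iHAC2-iPS clones between -0.07 and -0.01, and the iHAC-free lines between -0.08 and 0.05. The next highest excess over the other autosomes was 0.08 in F-B1. MEFs, set against the same lines, had -0.22 on chromosome 8 and -0.16 on the other autosomes.

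**Figure D1:**
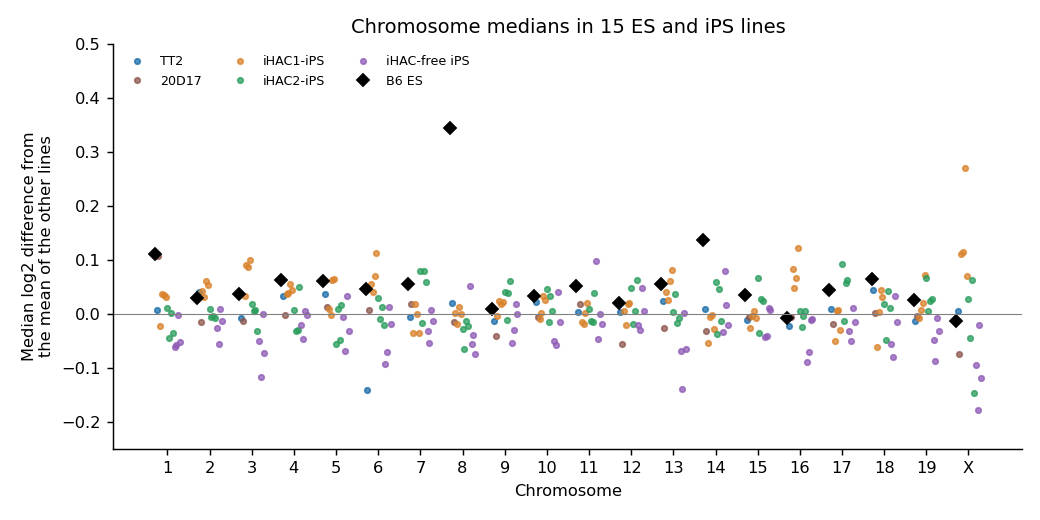
Median log2 difference of each line from the mean of the other lines, by chromosome, over probes well above background on all 16 arrays. Points are lines, coloured by group, and black diamonds are B6 ES; its chromosome 8 median of 0.34 lies above the other points, the next being 0.27 for X in 1-C3.

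Within B6 ES the medians of the 18 other autosomes ran from -0.01 to 0.14, the highest on chromosome 14, with a standard deviation of 0.034. Over the 300 pairs of a chromosome and a line, chromosome 8 in B6 ES had the largest median in absolute size. It was followed by chromosome X in 1-C3 (0.27), in F-C5 (-0.18) and in 2-N (-0.15), and by chromosome 6 in TT2 (-0.14).

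The difference was seen against every line taken singly. All of these comparisons use the 1 B6 ES array on which the pattern was chosen, so they are no separate support for it. B6 ES minus another line gave a chromosome 8 median between 0.25, against F-B1, and 0.39, against 2-C6. Between 63.9% and 81.4% of the members were higher in B6 ES. TT2 minus each of the 13 remaining lines gave medians between -0.03 and 0.08. B6 ES shared a slide with TT2, 20D17 and 1-D6, and against these 3 arrays its chromosome 8 median was 0.37 with an excess of 0.29. Against the 6 lines of the same scan session the excess was 0.30, and against the 8 lines of the other session it was 0.28.

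The higher level was seen in most stretches of the chromosome. Members were placed in 14 windows of 10 Mb, of which 12 held at least 20 members. In 11 of these 12 windows B6 ES had the highest median of the 15 lines. The medians of B6 ES in these windows ran from 0.11 to 0.47, with the highest between 110 and 120 Mb. The exception was the window from 60 to 70 Mb, which held 28 members: 2-B1 (0.37), 2-E (0.34) and F-B1 (0.14) stood above B6 ES (0.11) there. Of the sparse windows, the one from 130 to 140 Mb had -0.08 in B6 ES over 5 members, rank 11 of the 15 lines, and the other had 0.51 over 11 members. Of the 168 medians of other lines in these windows, 13 lay above 0.11. In running windows of 51 neighbouring members the median of B6 ES stayed between 0.05 and 0.68, above 0 in each of 994 windows. Windows of 5 Mb are less steady, and the lowest of them had a median of -0.05. Leaving the iHAC1-iPS clones out of the mean also took the lowest 10 Mb window to -0.01.

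**Figure D2:**
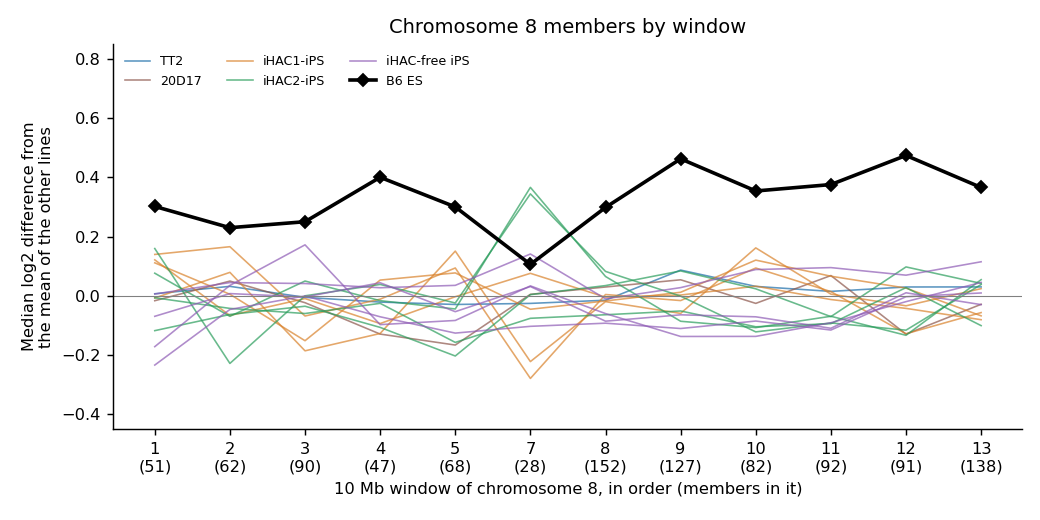
Median log2 difference from the mean of the other lines in each 10 Mb window of chromosome 8 with at least 20 members, in order along the chromosome, with the number of members in brackets. Each line is an ES or iPS line; B6 ES, in black with diamonds, is highest in 11 of 12 windows, and 2 iHAC2-iPS clones and an iHAC-free line lie above it in the window of 28 members.

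Among the members the excess over the other autosomes was 0.31, 0.30 and 0.33 in 3 equal parts of the members by mean level, from dim to bright. By the GC share of the probe, from low to high, it was 0.30, 0.30 and 0.28. Members on the plus strand had 0.27 and those on the minus strand 0.32. Of the 236 genes with 2 or more member probes, 162 had all their probes above the mean of the other lines, 28 had none above it and 46 were mixed, and the median spread between probes of a gene was 0.21. Just inside the detection limit, the 74 dimmest members had a median of 0.11 in B6 ES, and the 74 probes just outside it, well above background on 15 arrays, had 0.27. The 170 probes on 8 to 14 arrays had 0.22, and the 280 on 1 to 7 arrays had -0.42, with 34.6% above 0. Probes of the other autosomes had medians of 0.03, 0.09 and -0.45 in B6 ES for 15, 8 to 14 and 1 to 7 arrays. The difference from the other autosomes was not seen at the same size in probes detected on the fewest arrays. Of the 74 on 15 arrays, 37 were missed on 2-B1 and 22 on 2-N.

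The size of the difference varied from gene to gene. In B6 ES 316 members (30.3%) lay above the 3-to-2 mark of 0.58, against 10.6% of the probes of the other autosomes. The opposite mark, below -0.58, was passed by 6.61% of the members and 13.6% of the other autosomes. B6 ES was above all 14 other lines for 352 members, or 33.7%, where 12.9% of all 19937 probes were. It was below all of them for 43 members, or 4.12%, where 8.16% of all probes were. For TT2 the member counts were 19 above (1.82%, against 5.23% of the probes of the other autosomes) and 66 below (6.32%, against 5.44%). A member that was highest in B6 ES could not be highest in TT2.

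The B6 ES arm of any fit by probe is 1 array, whose spread is taken from the other lines, and its contrast with the 14 other lines is the one that chose the pattern, so its calls are no test of it and nothing is read from them. In that limma fit 2 of 1044 members, Ash2l and Fam32a, were called at an adjusted p under 0.05, where 0.0702% of the 19937 probes were. Against TT2, another single array, 1 member was called, a probe of Golga7, where 0.0201% of all probes were, and 0 were called with normexp background correction, the strict filter on dim probes, slide as a block or 1 probe per gene. The level of that probe was -4.20 in B6 ES and -2.07 in TT2, while a brighter Golga7 probe had 1.69 and 1.20.

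Ash2l encodes a core subunit of histone H3K4 methyltransferase complexes. Its level was 5.46 in B6 ES and 4.20 in TT2. The 20D17 line had 3.96, the iHAC1-iPS clones 3.07 to 3.37, the iHAC2-iPS clones 3.60 to 4.10 and the iHAC-free lines 4.20 to 4.38. B6 ES lay apart above all of them. Its 3.05-fold difference is larger than the 3-to-2 mark, and Ash2l also differed among the other lines, lowest in iHAC1-iPS.

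Genes of RNA processing and translation had the highest median of the 9 lists in B6 ES. All 16 member genes of this list lay above the mean of the other lines, with a median of 0.64, and B6 ES was the highest of the 15 lines for 13 of them. For comparison, 521 of all 735 member genes with a brightest probe among the members lay above 0, with a median of 0.32. The same list had a median between -0.23 (F-C5) and 0.19 (2-N) in the other lines. The members ran from Nudt21 (0.25), a subunit of cleavage factor Im, to Nob1 (1.00), which matures the small ribosomal subunit.

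Lsm4, a component of the U6 snRNP of the spliceosome, had a level of 6.89 in B6 ES, and the other lines ran from 6.09 to 6.47 with a median of 6.20. The ribosomal protein gene Rpl13 had 8.50 in B6 ES and 7.90 to 8.43 elsewhere (median 8.11). B6 ES was above all other lines for both genes.

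Of the replication, repair and cell cycle genes, 17 of 17 lay above 0 in B6 ES, with a median of 0.46. The lowest was Cdk10 (0.10) and the highest Anapc10 (0.86), a subunit of the anaphase-promoting complex. Orc6, of the origin recognition complex, had 5.60 in B6 ES and 4.44 to 5.34 in the other lines, with a median of 4.86. Cdt1, which licenses replication origins, had 6.51 in B6 ES, within the 5.41 to 6.79 of the others. Aprt, the enzyme of adenine salvage, had 6.04 against 5.28 to 5.97. So the B6 ES level was outside the range of the other lines for Orc6 and Aprt and inside it for Cdt1.

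Chromatin and transcription genes had a median of 0.59, with 18 of 20 above 0 and B6 ES the highest line for 15. Hmgb2, an abundant chromatin protein that bends DNA, had 7.05 in B6 ES, and the other lines had 6.15 to 6.62 (median 6.39), TT2 being the highest of these. The corepressor subunit gene Sin3b had 6.33 against 5.46 to 6.28, and the bromodomain gene Brd7 had 4.79 against 4.12 to 4.62. All 3 stood above the other lines, by 0.67, 0.34 and 0.35 over their mean. The highest gene of the list was Chd9 (1.15), a chromatin remodeller. The exceptions were Nsd3 (-0.29) and Nfix (-1.76), a transcription factor whose level in MEFs was 2.19, against -1.93 in B6 ES.

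**Figure D3:**
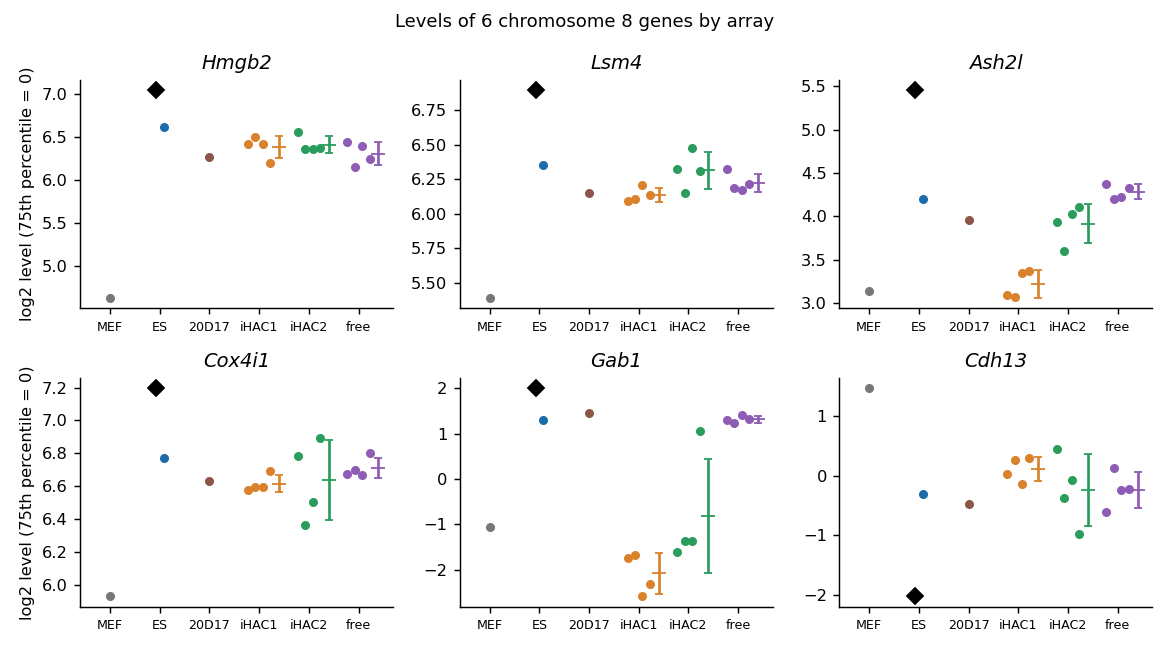
Log2 levels of 6 chromosome 8 genes on each array, by group, with 0 at the 75th percentile of the array. Circles are arrays, the black diamond is B6 ES, and bars give the mean and SD of groups of 4 lines; B6 ES is above the other lines for Hmgb2, Lsm4, Ash2l, Cox4i1 and Gab1 and below them for Cdh13.

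Metabolic and mitochondrial genes had 14 of 19 members above 0 and a median of 0.38. Cox4i1, a subunit of cytochrome c oxidase, had 7.19 in B6 ES and 6.36 to 6.89 elsewhere, and Prdx2, a peroxiredoxin, had 6.97 against 6.22 to 6.91. Mt2, a metallothionein, had 8.23 in B6 ES and between 4.16 and 8.14 in the other lines, where the 4 lowest values were those of the iHAC1-iPS clones. The 5 genes of this list not above 0 lay between -0.08 and -0.03.

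Proteolysis, trafficking and folding genes had a median of 0.44, with 11 of 17 above 0, where 521 of all 735 member genes were. The ubiquitin ligase gene Wwp2 had 5.33 in B6 ES and 3.91 to 4.90 in the other lines. The lysosomal gene Lamp1 had 4.94, inside the 4.54 to 5.12 of the others, and the immunoproteasome gene Psmb10 had 5.08, inside 3.43 to 5.77. The apoptosis genes had 6 of 9 above 0 with a median of 0.31, from the interferon regulatory factor gene Irf2 (-1.82) to the lysosomal nuclease gene Dnase2a (1.66). Gadd45gip1 had 4.88 in B6 ES, just above the 4.02 to 4.77 of the other lines, and the death receptor adaptor gene Tradd had 2.14, inside 1.74 to 2.85.

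Among embryonic and reprogramming regulators, 6 of the 7 members lay above 0, with a median of 0.30. The zinc finger gene Sall1 was furthest up, at -0.49 in B6 ES, with the other lines from -3.93 to -0.69 and TT2 the highest of these. The Jun family genes Jund (0.31) and Junb (0.30) were close to the chromosome's median. Klf2, a Kruppel-like factor of the naive pluripotency network, was read by a pair of probes that disagree. Its brighter probe had 7.37 in B6 ES against 6.85 to 7.64, a difference of 0.18, and its dimmer probe had 5.53 against 0.47 to 6.16, a difference of 2.20. Another 7 listed regulators, among them Cdh1 and Hand2, had no probe well above background on every array.

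Signalling genes were split evenly. Their median in B6 ES was 0.01, with 9 of 18 above 0. Gab1, a docking protein of receptor tyrosine kinases, had the highest difference of all member genes (2.25). Its level was 1.99 in B6 ES, 1.30 in TT2, 1.46 in 20D17 and 1.23 to 1.41 in the iHAC-free lines, against -2.59 to -1.68 in iHAC1-iPS and -1.60 to 1.05 in iHAC2-iPS, so that most of its difference lay between groups of the other lines. Plcg2, a phospholipase C, had 4.73 against 0.93 to 4.52. Gas6, a ligand of the TAM receptors, had 2.85, inside 2.77 to 4.03, with MEFs at 4.94. Prmt7, an arginine methyltransferase, had 5.87, and 2-N was higher at 6.12. Outside the lists, 2310079N02Rik was among the 5 highest genes, at -1.01 in B6 ES and -5.05 to -1.39 in the other lines.

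Adhesion and matrix genes had a median below 0 in B6 ES, at -0.58, with 6 of 14 above 0. Cdh13, or T-cadherin, had -2.02 in B6 ES and -0.97 to 0.46 elsewhere, and Plat, tissue plasminogen activator, had -1.13 against -1.06 to 1.74. Col4a2, a collagen chain of basement membranes, had 1.03 against 1.23 to 3.71, the lowest of the other lines being 2-N in each of the 3. Not every adhesion gene was low: Fat1, a giant cadherin, had 4.96 in B6 ES against 3.51 to 4.77, and Bcar1, a focal adhesion scaffold, had 3.74 against 2.40 to 3.71. The endothelin receptor gene Ednra was the lowest of all member genes, at -3.07 in B6 ES, -0.44 in the median of the other lines, of which 2-N was lowest at -2.15, and 2.80 in MEFs. Irf2 (-4.77 against -4.18 to -1.39) and the dipeptidase gene Dpep1 (-4.91 against -4.32 to -1.89) completed the 5 lowest with Cdh13 and Plat.

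Most listed fibroblast markers were low in the same line. All 8 of the listed markers (such as Col1a1, Col3a1 and Postn) were well above background on all 16 arrays. Lum was lower in 2-N (-1.27), TT2 (-1.01) and F-B1 (-0.93) than in B6 ES (-0.86). Thy1 was lower in MEFs (3.66) than in B6 ES (3.98), and the other listed markers were lowest in B6 ES. Their median level was 2.02 in B6 ES, the lowest of the 16 arrays, 4.33 in MEFs, 3.47 in TT2 and 4.38 in 20D17. It was 3.90 to 5.20 in iHAC1-iPS, 2.57 to 4.79 in iHAC2-iPS, where 2-N was lowest, and 3.42 to 4.69 in iHAC-free lines. The median difference of the adhesion and matrix genes was -0.76 in 2-N and highest in 1-D6 (0.61), the line with the highest fibroblast marker level. The part of feeder or fibroblast RNA in these values was not tested. Over the 750 members whose level in MEFs lay within 2-fold of the mean of the lines, the median of B6 ES was 0.36, with 77.3% above 0, against 0.07 and 56.3% for the other autosomes. In 3 equal parts by the difference of MEFs from the lines, from low to high, the excess was 0.31, 0.27 and 0.31. Against 2-N, the line nearest to it in fibroblast marker level, B6 ES had a chromosome 8 median of 0.30. Pluripotency markers were well above background for 7 of 7 measured genes in B6 ES, TT2, 20D17, 1-B, 1-C3 and all iHAC2-iPS and iHAC-free lines, and for 5 of 7 in 1-A3 and 1-D6, whose median marker levels were -1.67 and -1.18 against 2.93 in B6 ES. Pou5f1 (Oct4) and Sox2 are among them and are also carried by the vectors, and which copy was read was not tested. Pou5f1 was at 6.71 in 1-A3 and 6.74 in 1-D6, against 3.58 in B6 ES.

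**Figure D4:**
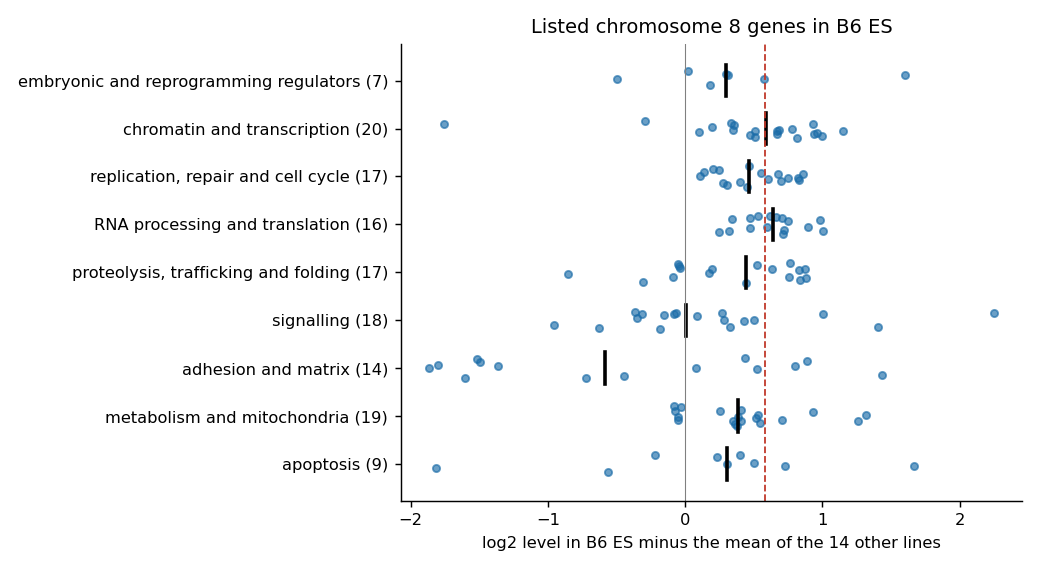
Log2 level in B6 ES minus the mean of the 14 other lines for the listed chromosome 8 genes that are members, 1 point per gene, with the median of each list as a black bar and the number of genes in brackets. The dashed line marks 0.58, the log2 of 3 over 2; RNA processing genes (median 0.64) lie to the right of 0 and adhesion and matrix genes (median -0.58) spread widely to the left.

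The B6 ES line is 1 of the 2 ES lines that stand for ES cells in each comparison, so its chromosome 8 levels enter all of them. The comparisons below share these 2 arrays, and B6 ES values also entered the description above, so the counts are descriptions. How much of them comes from the shift was not tested. Between iHAC1-iPS and ES cells limma called 265 of the 1044 members (25.4%), where 23.3% of all 19937 probes were called, so the share was near that of all chromosomes together. Of the 265, 93 were higher in iHAC1-iPS, where 12.2% of all probes were, and 172 were lower, where 11.1% were. That makes 64.9% lower, against 47.6% of the 4650 called probes on all chromosomes. This was the highest share of the 20 chromosomes. The median difference of the members was -0.19, against -0.02 over all probes. When the chromosome 8 values of B6 ES were lowered by 0.34 before the fit, 138 were called higher and 123 lower, or 47.1% lower. That lowering takes out the shift measured on these same members, so its effects here and below are largely set in advance.

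Between iHAC2-iPS and ES cells 155 members (14.8%) were called, where 13.2% of all probes were. In a fit restricted to these groups the count was 1, where 4 of all 19937 probes were called. The count also fell when either ES array was left out, and so did that over all probes. Of the 155 members, 35 were higher, where 6.4% of all probes were, and 120 lower, where 6.84% were. That makes 77.4% lower against 51.6% of all called probes, again the highest share of the 20 chromosomes. The median difference was -0.17, against -0.01 over all probes. With B6 ES lowered, 77 were higher and 58 lower, or 43.0% lower. iHAC2-iPS and iHAC-free lines were scanned in the other session than ES cells, so session and group cannot be told apart in these comparisons. iHAC1-iPS and ES cells were scanned in the same session, but 1-A3, 1-B and 1-C3 lay on another slide than the ES lines. With the slide as a fixed block 77 members (7.38%) were called in iHAC1-iPS against ES cells, 21 higher and 56 lower. Of the 19937 probes 1510 were then called.

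**Figure D5:**
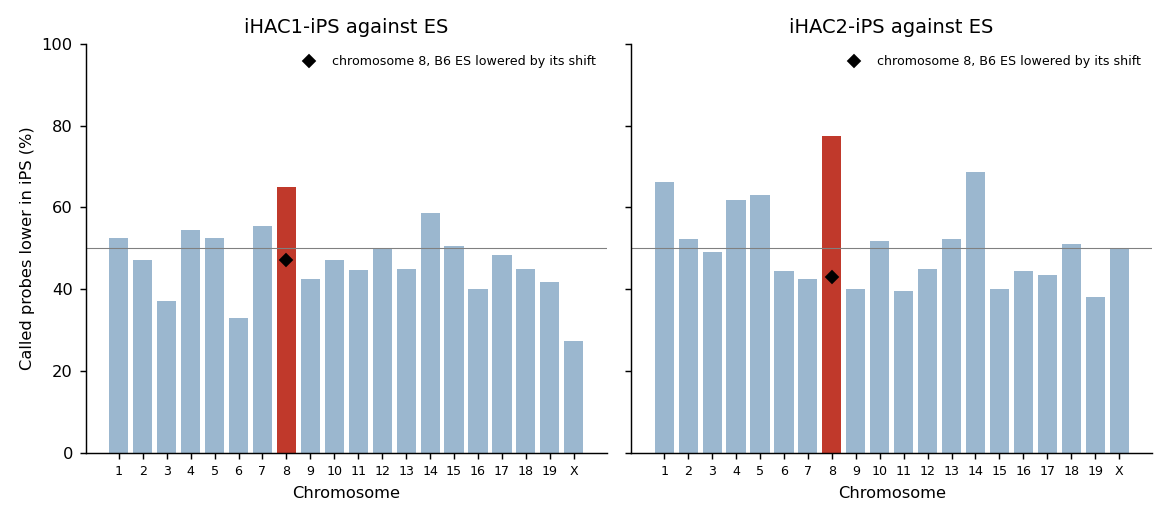
Share of called probes that were lower in iHAC1-iPS (left) or iHAC2-iPS (right) than in ES cells, by chromosome, over probes well above background on all 16 arrays. Bars start at 0, chromosome 8 is red at 64.9% and 77.4%, and the diamond gives its share after the B6 ES values were lowered by 0.34, which is 47.1% and 43.0%. The 0.34 is the shift of these same members, so the diamond's move is largely set in advance.

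Between iHAC-free lines and ES cells 3 members were called, all lower, where 0.487% of all probes were called, 0.191% higher and 0.296% lower, and 292 members (28.0%) had an unadjusted p under 0.05, where 24.1% of all probes did. The median difference was -0.15, against -0.03 over all probes. With the fit restricted to probes well above background on all arrays, 5 members were higher and 50 lower, where 1.38% of all probes were called higher and 2.44% lower. With B6 ES lowered and the first set of probes, 2 members were called, both higher.

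The same comparisons were made against each ES line singly. Against B6 ES the median member was at -0.36 in iHAC1-iPS, -0.33 in iHAC2-iPS and -0.30 in iHAC-free lines. Against TT2 these were -0.01, -0.04 and -0.03. Against B6 ES limma called 38 members higher in iHAC1-iPS, where 7.04% of all probes were, and 133 lower, where 5.45% were. In iHAC2-iPS it called 0 higher (0.431% of all probes) and 16 lower (0.542%). Against TT2 it called 23 higher (3.6% of all probes) and 39 lower (2.93%) in iHAC1-iPS, and 4 higher (0.667%) and 6 lower (0.522%) in iHAC2-iPS. In iHAC-free lines 0 members were called against B6 ES by limma, where 0.0451% of all probes were, and 2 were called against TT2, both lower, where 0.0953% were. An unadjusted p under 0.05 was found against B6 ES for 318 members (30.5%) and 16.9% of all probes, and against TT2 for 121 members (11.6%) and 12.2% of all probes. Each of these fits has 1 ES array, whose spread is taken from the other groups. The fits against B6 ES use the array on which the pattern was chosen, so they are no test of it. Against TT2, too, more called members were lower than higher in iHAC1-iPS and iHAC2-iPS, while over all probes more were higher.

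In the distance between the ES lines chromosome 8 took a somewhat larger part than its number of probes. Among the 19937 probes it held 5.24% of the probes and 7.0% of the sum of squared log2 differences between B6 ES and TT2, a ratio of 1.34. Chromosome 6 had a ratio of 1.51 and chromosome 12 one of 1.34, so chromosome 8 ranked 3 of 20. Over the 14 pairs of B6 ES with another line the share ran from 5.27% to 7.0%. Over the pairs of TT2 with the lines other than B6 ES it ran from 3.87% to 5.22%. With B6 ES lowered by its median shift, the share between the ES lines was 5.40%.

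For iHAC1-iPS and iHAC2-iPS the members named below were picked among called members whose groups do not overlap. Both ES lines therefore lie on the same side of the clones by that choice. In iHAC1-iPS the named members that rose furthest were the HMG-box gene Tox3, Kbtbd11 and Nfix. The level of Tox3 was 1.29 to 2.29 in the 4 clones and -1.25 and -1.49 in B6 ES and TT2, a difference of 3.33 ± 0.78 (SE; adjusted p = 0.0109 in limma). Nfix was at 0.52 to 2.24 against -1.93 and -0.86 (adjusted p = 0.00182 in limma). MEFs were at -0.51 for Tox3 and 2.19 for Nfix.

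Those that fell furthest in iHAC1-iPS were 2210011C24Rik, Gab1 and Syce2, a synaptonemal complex gene. Syce2 was at -2.14, 2.44, 2.56 and 0.79 in the clones and at 4.83 and 4.37 in B6 ES and TT2, a fall of 3.69 ± 0.96 (SE; adjusted p = 0.0186 in limma). Gab1 fell by 3.73 ± 0.60 (adjusted p = 0.00156 in limma). The place of TT2 beside B6 ES for these genes follows from how they were picked, so nothing is read from it.

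In iHAC2-iPS the furthest falls were those of Gab1, the meiotic chaperone gene Clgn and Tubb3, a neuronal tubulin that also marks neural cells. Tubb3 was at -0.15 to 0.88 in the clones and at 2.52 and 2.54 in B6 ES and TT2, a fall of 2.19 ± 0.37 (SE; adjusted p = 0.00728 in limma). The iHAC-free lines had 0.91 to 1.92. The furthest rises were those of 1700029J07Rik (2.35 ± 0.44, SE), the transcript ENSMUST00000034183 (1.69 ± 0.43) and the probe NAP108437-1 (1.54 ± 0.37), with adjusted p of 0.0103, 0.0284 and 0.0249 in limma.

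In the iHAC-free lines the 3 members called were Fam32a, Dhps, which modifies the translation factor eIF5A, and a dim probe of the immediate early gene Ier2. Fam32a was at 3.30 in B6 ES, 2.97 in TT2, 2.84 in 20D17, 2.03 to 2.28 in iHAC1-iPS, 1.86 to 2.06 in iHAC2-iPS and 2.14 to 2.47 in iHAC-free lines. Dhps had 3.42 and 3.20 in the ES lines, 2.94 in 20D17 and 2.19 to 2.68 in the 12 iHAC1-, iHAC2- and iHAC-free lines. For both genes the ES lines and 20D17 lay above those 12 lines, and B6 ES was the highest. The fall in iHAC-free lines was 0.84 ± 0.15 for each of the 2 genes (SE; adjusted p = 0.0409 and 0.0373 in limma). Ier2 was chosen after its values were seen. Its dim probe was at -1.18 and -1.45 in B6 ES and TT2 and at -2.21 ± 0.08 (SD, n = 4) in iHAC-free lines, and its brighter probe was at 3.78 and 3.68 against 2.92 ± 0.23.

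Between iHAC1-iPS and ES cells, where 12.2% of all probes were called higher and 11.1% lower, the listed genes were counted by list. The lists hold 7 to 20 genes and several counts lie near those shares, so no list is set apart by them. Of 17 replication genes 0 were higher and 4 lower (Anapc10, Cdt1, Fanca and Orc6), and of 16 RNA processing genes 0 were higher and 2 lower (Lsm4 and Nip7). Of 19 metabolic genes 0 were higher and 5 lower, of 20 chromatin genes 2 were higher and 4 lower, and of 7 embryonic regulators 0 were higher and 1 lower (Sall1). Of 18 signalling genes 4 were higher and 2 lower, of 14 adhesion and matrix genes 4 were higher and 3 lower, of 9 apoptosis genes 3 were higher and 1 lower, and of 17 proteolysis genes 2 were higher and 2 lower. Between iHAC2-iPS and ES cells 6.4% of all probes were called higher and 6.84% lower. There 3 of the 17 replication genes were lower (Anapc10, Gins3 and Terf2ip), and each other list had at most 3 genes called. By their brightest probes 0 listed genes were called in iHAC-free lines, where 0.487% of all probes were.

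Between iHAC2-iPS and iHAC-free lines, a comparison without ES cells, 7 members were called, 4 higher and 3 lower in iHAC2-iPS, where 1.12% of all probes were called, 0.527% higher and 0.592% lower. With the parental clone as a block 3 were called, 1 higher and 2 lower. The 7 probes read 6 genes, chosen here after their values were seen. Mri1, of the methionine salvage pathway, was higher in iHAC2-iPS by both its probes (3.55 to 4.07 against 3.04 to 3.14 for the first), as were 1 of 2 probes of Evi5l and of Abhd8. The dimmer Klf2 probe was lower (2.08 ± 1.37 against 5.41 ± 0.29, SD, n = 4 each), while the brighter one had 7.16 ± 0.18 and 6.92 ± 0.10 and was not called. Adgrl1, an adhesion receptor, was lower by 1 of its 4 probes (-1.53 ± 0.30 against 0.48 ± 0.41), and Rasa3 by 1 of 2.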

How the data were processed

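RNA of 16 lines was hybridized by the authors to 1-colour Agilent arrays, scanned in 2 sessions on 4 slides and extracted with Feature Extraction 10.7.1.1 and 10.7.3.1, as the submitters' notes and file headers give. The deposited scanner files hold linear intensity values of the spots, as a processed signal not scaled between arrays. The value table the authors deposited holds log2 values from GeneSpring GX 11, centred for each probe, and served as an alternative.

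Outlier and control spots were left out, spots of a probe were averaged, and each array's 75th percentile was subtracted from the log2 processed signal. No spot was saturated, and 54.2% to 65.8% of an array's spots were well above background; 1 array for each line limits the precision. Windows used the mm9 probe positions, since the column named as a start holds a place in the transcript. Symbols came from RefSeq for 26690 of 28026 probes with such an accession.

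Groups were compared with limma 3.58.1 in R 4.3.3 (lmFit, eBayes, Benjamini-Hochberg) over 31415 probes well above background on at least 1 array, in fits of all arrays with 6 groups, or with 7 where B6 ES and TT2 were kept apart. A probe was called at an adjusted p under 0.05. Tested on simulated data for iHAC-free iPS against ES cells, with 200 of 31387 probes changed, the fit recovered 55.5%. The changes put in were much larger than the chromosome 8 shift, and the noise was independent between arrays. The share recovered therefore does not hold for differences as small as that shift. Tables and figures were made in Python 3.11.15 with pandas 2.3.3, numpy 2.4.6 and matplotlib 3.10.9.

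The members, gene lists and tests were chosen with earlier results of these data known. Named genes are the 3 brightest member genes of each list, the 5 highest and 5 lowest in B6 ES, and in each comparison with ES cells the 3 called members furthest up and down whose groups do not overlap, each by its brightest probe. One gene that this rule names is not reported here. The iHAC-free lines come from the clones of the same letter; in their deviations from the group means own pairs had correlations of -0.48, -0.10, -0.05 and 0.22, against -0.35 to 0.45 for other pairs, and the clone was used as a block in an alternative. Other alternatives were normexp background correction, quantile normalization, the deposited table, other filters and probe choices, slide blocks, fewer groups in the fit and each array left out in turn. p-values measure the spread between lines.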

Additional observations from a re-analysis of the deposited data

Results flagged for a closer look

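In groups of 4 lines a value far from the other 3 was noted when its gap to the nearest, over the group's whole range, passed Dixon's critical value. This was found in 9 of 147 groups, and chance gives about 1 in 20, or 7.35. In iHAC2-iPS the level of Gab1 was 1.054 in 2-N, against -1.60 to -1.37 in the other clones, and that of Junb was 3.834 in 2-N, against 4.98 to 5.13. Klf2 was at 6.894 in 2-C6 (others 7.23 to 7.28), Syce2 at 4.377 in 2-C6 (4.97 to 5.09) and Hmgb2 at 6.556 in 2-B1 (6.36 to 6.38). In iHAC1-iPS Aprt was at 5.967 in 1-D6 (5.76 to 5.79), Rpl13 at 8.071 in 1-D6 (8.11 to 8.11) and Fam32a at 2.276 in 1-C3 (2.03 to 2.05). In iHAC-free lines Prmt7 was at 5.503 in F-E4 (lowest of the others 5.69).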

How the results depend on the processing

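The chromosome 8 median of B6 ES, 0.34 as reported, was 0.27 with normexp background correction, 0.27 over chromosome 8 probes on at least 1 array and 0.29 as a mean, and moved by less than the spread between lines under the other alternatives, including members within 2-fold of MEFs (0.36, added after the data were seen). Leaving out each other line gave 0.34 to 0.35, and 0.03 to 0.06 for the highest other line, which was 0.092 within scan sessions. The lowest window turned negative in 5 Mb windows (-0.051) and without the iHAC1-iPS clones in the mean (-0.010), and ran from 0.06 to 0.17 with 1 line left out. The share of the squared difference between the ES lines was 7.77% with normexp, 5.37% over probes on at least 1 array and 5.40% with B6 ES lowered.

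Counts of called members depended on the setting. B6 ES against the other lines gave 8 with normexp and 1 without a filter, and 1 to 19 with an array left out, the 19 without 2-N. B6 ES against TT2 gave 0 with normexp, the strict filter, the slide block or 1 probe per gene; without either ES array there is no comparison. For iHAC1-iPS against ES cells the count was 138 (51 higher, 87 lower) at 2-fold or more and 77 (21 and 56) with the slide block, and 62 to 259 with an array left out, 62 without B6 ES and 171 without TT2. For iHAC2-iPS it was 74 at 2-fold or more, 240 without a filter, 242 with the strict filter, 269 with the slide as a random block, 100 with 1 probe per gene and 1 with only the compared groups, and 10 to 278 with an array left out: 10 without B6 ES, 16 without TT2, 87 without 2-B1, 278 without 2-C6 and 61 without 2-E. More members were lower than higher in iHAC1-iPS and in iHAC2-iPS under these alternatives. This did not hold with the B6 ES values of chromosome 8 lowered (138 higher and 123 lower, and 77 and 58), which takes out the shift by design. For iHAC-free lines it was 0 at 2-fold or more, without a filter and with only the compared groups, 35 with normexp, 55 with the strict filter and 68 with the slide as a random block, and 0 to 2 with an array left out, 0 without TT2 or any iHAC-free line. For iHAC2-iPS against iHAC-free lines it was 3 at 2-fold or more, with 1 probe per gene and with the replicate block of the parental clone, 28 with normexp, 4 without a filter and with the slide block, 16 with the strict filter and 2 with only the compared groups, and 1 to 40: 4 without 2-B1, 12 without 2-C6, 2 without 2-E, 40 without 2-N and 1 without any iHAC-free line. Over all 19937 probes the counts moved too. For iHAC1-iPS they were 2552 at 2-fold or more and 1510 with the slide block. For iHAC2-iPS they were 1296 at 2-fold or more, 3922 without a filter, 3941 with the strict filter and 4447 with the random block. For iHAC-free lines they were 459 with normexp, 762 with the strict filter and 1026 with the random block. For iHAC2-iPS against iHAC-free lines they were 826 with normexp, 485 with the strict filter and 1020 without 2-N. The cause of these moves was not tested. A group left with 1 array is assumed to vary like the others.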
